A study of Danio rerio with 11 samples.

Results

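The genes described here encode proteins of the centrosome and of ciliary transport in the zebrafish brain. They are the 47 genes, of 16536 in the deposited table, whose symbol begins with cep, ift or bbs followed by a digit: 27 cep genes (centrosomal proteins), 12 ift genes (intraflagellar transport) and 8 bbs genes (named after Bardet-Biedl syndrome). Membership rests on the symbol alone and on no measured value, though this set of genes was chosen with earlier results of these data known. RNA of whole adult brains, about 8 months old, was sequenced in 11 libraries of 4 genotypes. The controls (2 libraries) are labelled wild type. The 3 mutant groups hold 3 libraries each. Brains labelled csf1ra-/- are called single mutants, those labelled csf1ra-/-;b+/- are called csf1rb-heterozygous mutants, and the name double mutant stands for csf1ra-/-;b-/-. All groups, the controls included, share the TLF x AB background and the mpeg1-GFP transgene, a reporter of macrophages and microglia. Zebrafish carry the receptor of colony-stimulating factor 1 as a gene pair, csf1ra and csf1rb: csf1ra is mutated on both alleles in every mutant group, and the groups differ in csf1rb. Whether replicates came from separate fish is not labelled, and the p-values below reflect only how far these libraries spread, possibly for technical reasons.

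A cilium is a microtubule-based projection that grows from a centriole docked at the cell surface. Intraflagellar transport moves cargo along it in trains built of IFT-B complexes, carried outward by kinesin motors, and IFT-A complexes, needed for the return by dynein. The BBSome is an adaptor that rides on these trains and moves membrane proteins out of the cilium. Most neurons and radial glia carry a primary cilium, which receives signals such as Hedgehog, while ependymal cells carry motile cilia that move cerebrospinal fluid. Centrioles at the cilium's base are also the core of the centrosome and duplicate once per cell cycle.

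The libraries held 12.8 to 15.3 M reads, and 1 CPM (a gene's reads relative to all reads of its library, with the authors' scaling) stood for 12.3 to 15.7 reads. CPM is not divided by transcript length, so levels are compared between libraries and not between genes. Neuronal snap25a (2949 to 3941 CPM) and radial glial fabp7a (761 to 1055 CPM) were high in every library, as in brain. Other markers were less even. Neuronal elavl3 stood at 125 CPM in double mutant replicate 1 and at 329 to 458 CPM in the other libraries. mbpa, of oligodendrocytes, stood at 7624 and 6456 CPM in controls and at 3625 to 4921 CPM in mutant libraries. The part of these differences in the levels below was not tested. csf1ra stood at 9.66 and 7.33 CPM in control libraries and at 5.10 CPM or less in each mutant library. The 3 mutant libraries numbered 2 stood apart: on the first principal component, with 26.9% of the variance, they lay at 19.1 to 39.7 and the other 8 libraries at -30.9 to 6.87. On that component the other 8 were also ordered by genotype. Controls lay at -30.9 and -24.3 and single mutants at -16.3 and -14.6. The csf1rb-heterozygous mutants lay at -4.96 and 2.07 and double mutants at 2.97 and 6.87. Results below are also given without the mutant libraries numbered 2 where that changes a call. Of 34 microglia and macrophage genes, 1, 15 and 27 fell in single, csf1rb-heterozygous and double mutants against control, by limma as described below. Of all genes, 0.472%, 0.671% and 1.16% were called in these comparisons, in either direction. The call in single mutants rests on 1 gene. These 34 genes summed to 856 to 1446 CPM in controls and to 622 to 874, 425 to 446 and 299 to 439 CPM in the 3 mutant groups, with csf1ra and c1qa at 0 in double mutant replicate 2 alone. In bulk tissue, fewer cells of a type and less RNA per cell cannot be told apart.

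None of the 12 ift and 8 bbs genes passed the test in any comparison of genotypes, and the members that did pass were cep genes. Between 0.0847% and 1.16% of all genes passed in each comparison, so 0 among 12 or 8 genes lies near that share. Each pair of genotypes was compared with limma on log2(CPM + 1) in 1 fit of all libraries, and a gene was called at an adjusted p under 0.05 over all 16536 genes. Of the 47 genes, 3 were called in single mutants against control (6.38%, against 0.472% of all genes): cep135 and cep152 rose and cep85 fell. In csf1rb-heterozygous mutants 1 of 47 was called against control, cep135, which rose (2.13%, against 0.671%), and in double mutants 1 of 47, cep152, which rose (2.13%, against 1.16%). Between mutants, cep85 was the 1 gene of 47 called in csf1rb-heterozygous against single mutants (background 0.187%) and in double against single mutants (background 0.943%), higher in both cases. In double against csf1rb-heterozygous mutants limma called 0 of 47 (background 0.0847%), with 6 at an unadjusted p under 0.05 (12.8%, against 5.22% of all genes). There edgeR's quasi-likelihood test called 0 (background 0.0968%) and DESeq2 called 1, cep135 (background not given here). The 3 comparisons with control share the same 2 control libraries, so their results are not independent of each other.

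**Figure D1:**
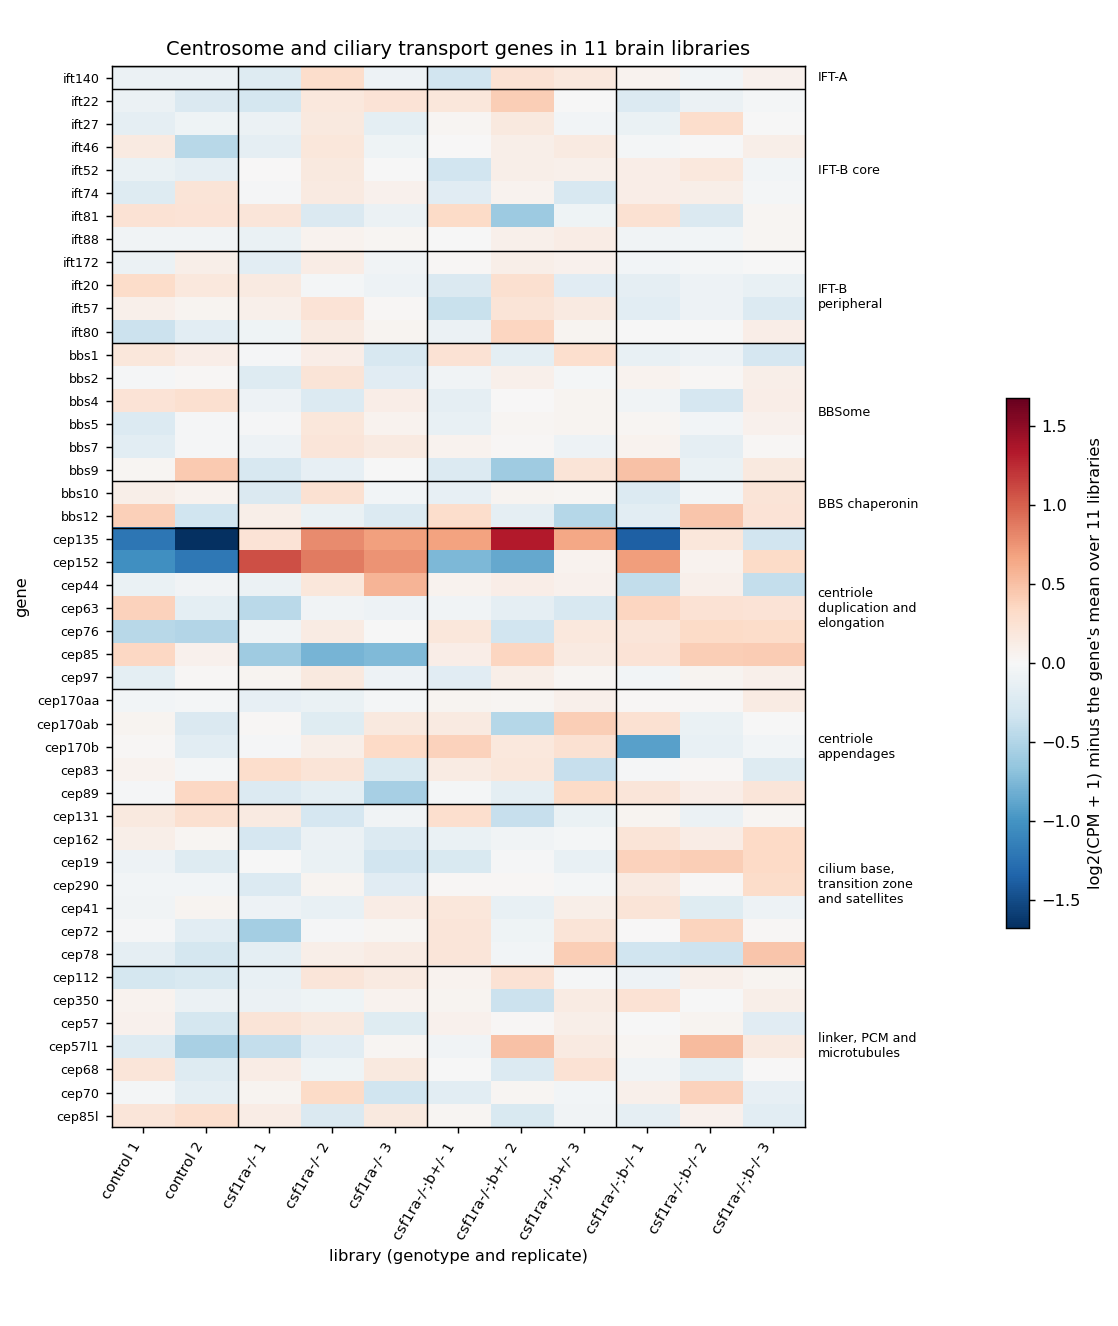
Level of 46 of the 47 genes (rows, grouped by role) in each of the 11 libraries (columns, by genotype and replicate), as log2(CPM + 1) minus the gene's mean over the libraries; red is above and blue below that mean. Rows of intraflagellar transport and BBS genes are mostly pale, whereas cep135 and cep152 are dark blue in both controls, and cep85 is blue in all 3 single mutant libraries. Also blue are cep135 in double mutant replicate 1 and cep152 in csf1rb-heterozygous replicates 1 and 2.

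All 47 genes exceeded 1 CPM in every library, so none was listed only because of a group in which it was high, and all had a mean of at least 2 CPM. In 33 of 47 the highest library was less than 2 times the lowest. The standard deviation of log2(CPM + 1) over the 11 libraries had a median of 0.19 over the 47 genes and 0.21 over all genes of the table. It was 0.19 for ift, 0.17 for bbs and 0.24 for cep genes. The median difference from control was 0.05 in single, 0.05 in csf1rb-heterozygous and 0.10 in double mutants on the log2(CPM + 1) scale, against 0.01, 0.00 and 0.01 for all genes. At an unadjusted p under 0.05 there were 5, 6 and 6 of the 47 in these comparisons (10.6%, 12.8% and 12.8%), below the shares of all genes (11.4%, 15.6% and 16.1%). There were 2 in csf1rb-heterozygous and 8 in double against single mutants (4.26% and 17.0%, against 6.28% and 11.3% of all genes).

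Intraflagellar transport genes gave no call in any of the 6 comparisons (0 of 12 by limma, edgeR or DESeq2, beside 0.0847% to 1.16% of all genes by limma). At an unadjusted p under 0.05 there was 1 in 1 comparison, ift80 in csf1rb-heterozygous mutants against control (8.33%, against 15.6% of all genes). The steadiest of all 47 was ift88, an IFT-B core subunit without which cilia fail to form or to be kept in zebrafish and mice. It stood at 57.2 and 57.0 CPM in controls, 55.0, 62.1 and 60.6 in single, 59.3, 63.4 and 64.8 in csf1rb-heterozygous, and 57.3, 57.8 and 60.8 in double mutants. Its highest library was 1.18 times its lowest, and its 95% interval for double mutants against control ran from -0.17 to 0.24 on the log2 scale. ift172, a peripheral IFT-B subunit that works at the tip of the cilium, ranged from 47.3 to 58.6 CPM over all libraries. ift140, the only IFT-A subunit among the 47, had means of 19.0, 20.6, 21.2 and 20.8 CPM in control, single, csf1rb-heterozygous and double mutants.

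The ift gene with the lowest p against control was ift80, a peripheral IFT-B subunit linked to skeletal ciliopathy in humans. Its levels were 24.4 and 28.0 CPM in controls, 30.1, 35.2 and 32.8 in single, 29.4, 40.9 and 32.7 in csf1rb-heterozygous, and 31.5, 31.6 and 34.3 in double mutants. All 9 mutant libraries lay above both controls. The largest difference, 0.37 (95% interval 0.06 to 0.68) in csf1rb-heterozygous mutants, did not pass adjustment (limma adjusted p = 0.248). ift20, which in mammalian cells also links transport to the Golgi apparatus, lay the other way: 13.6 and 12.3 CPM in controls and 9.59, 10.1 and 9.77 in double mutants, a difference of -0.37 that was not called (limma adjusted p = 0.328). The summed level of the 12 ift genes was 308 and 317 CPM in controls, 306 to 356 in single, 305 to 357 in csf1rb-heterozygous and 322 to 325 in double mutants. The single and csf1rb-heterozygous libraries thus spanned the control values, and the double mutant libraries lay above both controls by a few CPM. The highest sums in single and csf1rb-heterozygous mutants, 356 and 357 CPM, were those of the libraries numbered 2. The other libraries stood at 306 and 323 CPM in single and at 305 and 332 CPM in csf1rb-heterozygous mutants. For 8, 7 and 8 of the 12, the 95% interval of the difference from control lay within 1.5-fold either way in single, csf1rb-heterozygous and double mutants. For the rest, a change of 1.5-fold in at least 1 direction was inside the interval.

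BBS genes likewise gave no call in any of the 6 comparisons (0 of 8 by limma, edgeR or DESeq2, beside 0.0847% to 1.16% of all genes by limma). At an unadjusted p under 0.05 there were 0 as well, beside 5.22% to 16.1% of all genes. bbs4, a BBSome subunit that in human cells also sits on the satellites around the centrosome, came closest. It stood at 20.2 and 20.9 CPM in controls, 16.1, 14.5 and 18.6 in single, 15.4, 17.2 and 17.7 in csf1rb-heterozygous, and 16.4, 13.9 and 18.6 in double mutants. Every mutant library lay below both controls, yet the differences of -0.32, -0.28 and -0.32 had limma adjusted p-values of 0.461, 0.394 and 0.324. bbs2, another BBSome subunit, had means of 36.0, 34.7, 36.0 and 37.5 CPM in the 4 genotypes. The most variable was bbs9, a BBSome subunit, from 3.28 to 8.13 CPM, and its libraries overlapped between double mutants and controls. Its single mutant libraries (4.38, 4.91 and 5.46 CPM) lay below both controls (5.65 and 7.79 CPM), without a call. Of the 8 genes, 4, 2 and 3 did not overlap with control in single, csf1rb-heterozygous and double mutants. These shares were 50%, 25% and 37.5%, against 29.2%, 34.4% and 36.4% of all genes. bbs10 and bbs12, parts of the chaperonin-like complex that assembles the BBSome, ranged from 3.24 to 4.98 and from 2.27 to 5.32 CPM. The 8 genes summed to between 104 and 123 CPM in all 11 libraries, with both controls inside the range of the mutants.

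The class of centriole duplication and elongation (cep44, cep63, cep76, cep85, cep97, cep135 and cep152) held every member called between genotypes. In single mutants against control these were 3 of 7 (42.9%, against 0.472% of all genes). In each other comparison they were 0 or 1 of 7 (0% or 14.3%, against 0.0847% to 1.16%). Classes were assigned from general knowledge, so this grouping depends on how they were drawn. cep135 (ENSDARG00000002991) encodes a protein of the cartwheel, the scaffold on which a new centriole forms, known from human cells, flies and algae. Its level was 15.2 and 10.7 CPM in controls, 43.1, 64.2 and 59.8 in single, 59.3, 93.8 and 57.9 in csf1rb-heterozygous, and 13.5, 42.1 and 29.0 in double mutants. Single and csf1rb-heterozygous mutants lay wholly above the controls, while the double mutants overlapped the controls and lay below both other mutant groups. That overlap rests on double mutant replicate 1 (13.5 CPM), as the other double mutant libraries lay above both controls.

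The means of cep135 were 12.99 ± 3.2 CPM (SD, n = 2) in controls and 55.7 ± 11.2, 70.4 ± 20.4 and 28.2 ± 14.3 CPM (SD, n = 3 each) in single, csf1rb-heterozygous and double mutants. It rose by 2.02 (SE 0.38, limma adjusted p = 0.0476) in single and by 2.33 (SE 0.38, limma adjusted p = 0.0219) in csf1rb-heterozygous mutants on the log2(CPM + 1) scale. In double mutants the difference from control was 0.94 (limma adjusted p = 0.254). The double mutants' difference was -1.07 from single (limma adjusted p = 0.208) and -1.39 from csf1rb-heterozygous mutants (limma adjusted p = 0.320), neither called. DESeq2 did call the latter, at an adjusted p of 0.0117. The call in single mutants was lost with edgeR (adjusted p = 0.0636), among genes with a mean of at least 2 CPM (limma adjusted p = 0.0514), without the libraries numbered 2 (limma adjusted p = 0.0519), and when any of its 5 libraries was left out. Those limma adjusted p-values were 0.117 and 0.326 without control replicate 1 or 2, and 0.0631, 0.151 and 0.136 without single mutant replicate 1, 2 or 3. The call in csf1rb-heterozygous mutants was lost without control replicate 1 (0.0668), control replicate 2 (0.155) or csf1rb-heterozygous replicate 2 (0.0603).

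cep152 (ENSDARG00000075725) encodes a ring-forming scaffold at the parent centriole that, in human cells, recruits PLK4, the kinase that starts duplication. Controls held 1.25 and 1.00 CPM (19 and 13 reads), single mutants 8.76, 7.47 and 6.77 CPM (108, 102 and 93 reads), csf1rb-heterozygous mutants 1.74, 1.53 and 3.83 CPM (25, 22 and 59 reads), and double mutants 6.48, 3.81 and 4.75 CPM (102, 53 and 71 reads). Every mutant library lay above both controls, and the csf1rb-heterozygous libraries lay below all single mutant libraries but overlapped the double mutants.

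cep152 averaged 1.13 ± 0.174 CPM (SD, n = 2) in controls and 7.67 ± 1.01, 2.37 ± 1.27 and 5.01 ± 1.35 CPM (SD, n = 3 each) in single, csf1rb-heterozygous and double mutants. On the log2(CPM + 1) scale, which understates the change of so low a gene, it rose by 2.02 (SE 0.29, limma adjusted p = 0.0101) in single and by 1.48 (SE 0.29, limma adjusted p = 0.0336) in double mutants. The fold of mean CPM over control was 6.81 in single and 4.45 in double mutants. In csf1rb-heterozygous mutants the difference was 0.60 (limma adjusted p = 0.335), and against single mutants it was -1.42 (limma adjusted p = 0.0717; DESeq2 adjusted p = 0.00222). The call in single mutants was lost without control replicate 1 (limma adjusted p = 0.0529) or control replicate 2 (0.0973) and kept without any 1 single mutant library. That in double mutants was lost without control replicate 1 (0.135), control replicate 2 (0.192), double mutant replicate 1 (0.113) or double mutant replicate 3 (0.0770), with a pseudocount of 5 CPM (0.0507) and in a fit of those 2 groups alone (0.0543).

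cep85 (ENSDARG00000060215) encodes a protein that, in human cells, binds the duplication factor STIL and restrains the kinase NEK2 at the centrosome. Its level was 15.3 and 12.5 CPM in controls, 7.46, 6.45 and 6.70 in single, 12.8, 15.5 and 13.3 in csf1rb-heterozygous, and 14.0, 16.1 and 16.3 in double mutants. The single mutant libraries alone were low, and they overlapped no library of the other 3 groups, which overlapped each other.

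The mean of cep85 in single mutants, 6.87 ± 0.530 CPM (SD, n = 3), was 0.494 times that in controls, 13.9 ± 1.99 CPM (SD, n = 2). It fell by 0.92 on the log2 scale against control (SE 0.15, limma adjusted p = 0.0258). It was 0.91 higher in csf1rb-heterozygous (SE 0.13, limma adjusted p = 0.0247) and 1.06 higher in double (SE 0.13, limma adjusted p = 0.00395) than in single mutants. The double against single mutant call was kept in all 6 fits that left out 1 library (highest limma adjusted p = 0.0273) and without the libraries numbered 2 (0.0459). The other 2 calls were less stable. Against control, the call was lost without control replicate 1 (0.161), control replicate 2 (0.0708), single mutant replicate 2 (0.0893) or single mutant replicate 3 (0.0881), without the libraries numbered 2 (0.0846) and in a fit of those 2 groups alone (0.0917). For csf1rb-heterozygous against single mutants it was lost in each of the 6 fits, at 0.0575, 0.0937 and 0.116 without single mutant replicates 1, 2 and 3, and at 0.103, 0.0969 and 0.0981 without csf1rb-heterozygous replicates 1, 2 and 3. It stood at 0.225 without the libraries numbered 2 and at 0.0811 in a fit of those 2 groups alone.

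In RefSeq's GRCz12tu annotation, another build than that of the reads, cep85 overlaps mtdhb, and the strand handling of the authors' counting is not given in the sources used here, so reads of the 2 genes may be mixed. mtdhb stood at 44.2 and 40.2 CPM in controls, 26.0, 24.8 and 25.5 in single, 28.3, 34.8 and 42.2 in csf1rb-heterozygous, and 60.6, 52.1 and 56.4 in double mutants. It was also lowest in single mutants and was 1.12 higher in double than in single mutants (limma adjusted p = 0.00257). Of the 12 nearest listed genes of cep135 and of cep152, 6 on each side, 0 were called by limma in any of the 6 comparisons. With 0.0847% to 1.16% of all genes called in each comparison, 0 among 12 lies near the background. In the same GRCz12tu annotation 12 of the 47 genes overlap another listed gene, and their levels are uncertain in the same way. Besides cep85 they are ift20, ift22, ift80, ift140, bbs2, bbs12, cep19, cep44, cep83, cep131 and cep170aa. Erythrocyte genes differed in the single mutants too: 10 symbols were measured in 11 table entries, of which 9 had an unadjusted p under 0.05 (81.8%, against 11.4% of all genes), 0 were called by limma or edgeR and 3 by DESeq2 against control. They summed to 237 to 353 CPM in controls, 475 to 800 in single, 301 to 460 in csf1rb-heterozygous and 359 to 516 in double mutants. None of the 11 was at 0 in any library, and their part in the levels of cep85, cep135 and cep152 was not tested. The share of all genes called by DESeq2 is not given here, so its 3 calls have no background beside them.

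**Figure D2:**
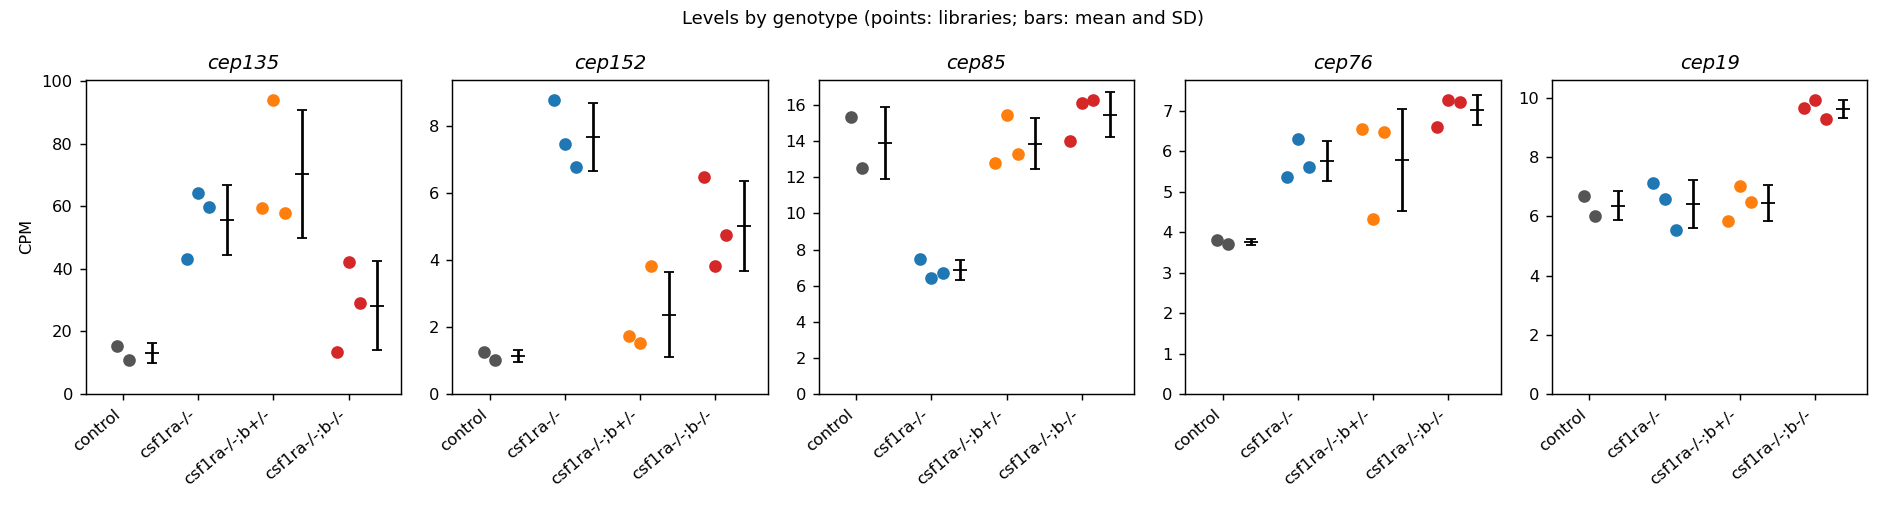
CPM of cep135, cep152, cep85, cep76 and cep19 in each library by genotype (points), with the mean and SD of each group beside them (bars; n = 2 for control, n = 3 for each mutant). The single mutant libraries of cep85 sit at 6.45 to 7.46 CPM, below all others, and the double mutant libraries of cep19 sit at 9.30 to 9.92 CPM, above all others.

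Of the other duplication genes, cep76, which in human cells keeps centrioles from duplicating again in the same cycle, came nearest to a call. It stood at 3.81 and 3.70 CPM in controls, 5.35, 6.30 and 5.61 in single, 6.54, 4.32 and 6.48 in csf1rb-heterozygous, and 6.60, 7.26 and 7.23 in double mutants. All 9 mutant libraries lay above both controls, and the double mutants above every other library. The difference of 0.75 in double mutants missed the threshold with limma (adjusted p = 0.0822) and passed it with DESeq2 (adjusted p = 0.0443). cep63, the partner of cep152 in the ring around the parent centriole, had means of 5.26 CPM in controls, 4.09 in csf1rb-heterozygous and 5.91 in double mutants, lay at 3.16, 4.47 and 4.37 CPM in single mutants and was not called. cep97, part of the cap that limits centriole length, was among the steadiest, at 16.0 to 20.7 CPM in all libraries. cep44, which in human cells helps a new centriole become a centrosome, had few reads, from 1.84 to 4.59 CPM.

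Appendage genes, whose products dock the centriole at the membrane or anchor microtubules, gave 0 calls of 5 by limma, edgeR or DESeq2 in the 6 comparisons. Of all genes, limma called 0.0847% to 1.16%. At an unadjusted p under 0.05 there were 0 to 2 (0% to 40%, against 5.22% to 16.1% of all genes). The highest count, 2 of 5, was in double against single mutants (40%, against 11.3% of all genes). cep170aa, a subdistal appendage gene, ranged only from 92.6 to 113 CPM. Its single mutant libraries, at 92.6, 94.6 and 99.5 CPM, lay below those of both other mutant groups, without a call. These stood at 104 to 109 CPM in csf1rb-heterozygous and 104 to 113 CPM in double mutants. cep170b, its relative, stood at 13.01 and 11.2 CPM in controls, 12.7, 13.8 and 16.4 in single, 17.1, 14.6 and 15.4 in csf1rb-heterozygous, and 6.35, 11.6 and 12.4 in double mutants. The cep170 genes are related, and whether reads of 50 nucleotides are shared between them was not tested. The double mutant libraries of cep170b lay below both other mutant groups, with double mutant replicate 1 the lowest, and the differences of -0.63 and -0.50 were not called (limma adjusted p = 0.640 and 0.384). cep89, a distal appendage gene, was at 6.18 and 8.25 CPM in controls, 5.19, 5.49 and 3.93 in single, and 7.37, 6.90 and 7.36 in double mutants. The single mutant libraries lay below the control and the double mutant libraries, without a call (limma adjusted p = 0.399 and 0.292).

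Genes of the cilium's base, transition zone and satellites gave 0 calls of 8 by limma, edgeR or DESeq2 in the 6 comparisons. Of all genes, limma called 0.0847% to 1.16%. At an unadjusted p under 0.05 there were 0 to 3 (0% to 37.5%, against 5.22% to 16.1% of all genes). The highest count, 3 of 8, was in double against single mutants (37.5%, against 11.3% of all genes). cep19, which in human cells brings IFT-B trains to the base of the cilium, stood at 6.70 and 6.02 CPM in controls, 7.14, 6.59 and 5.53 in single, 5.85, 7.04 and 6.48 in csf1rb-heterozygous, and 9.65, 9.92 and 9.30 in double mutants. The double mutant libraries were above the other 8, which overlapped. The double mutants' difference was 0.53 from control, 0.52 from single and 0.51 from csf1rb-heterozygous mutants, with limma adjusted p-values of 0.142, 0.136 and 0.465. cep19 overlaps ing5a and pigx in RefSeq's GRCz12tu annotation, so its reads may be mixed with theirs.

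cep162, which in human cells ties the transition zone to the ciliary microtubules, was at 12.4 and 11.8 CPM in controls, 9.33, 10.7 and 9.68 in single, 10.6, 11.02 and 11.3 in csf1rb-heterozygous, and 13.6, 12.7 and 14.9 in double mutants. Its double mutant libraries lay above all others, and the difference of 0.43 from single mutants was not called (limma adjusted p = 0.142). cep290, a large transition zone protein whose human gene is mutated in retinal and kidney ciliopathies, had means of 67.9, 64.3, 70.1 and 78.5 CPM in the 4 genotypes. Its difference of 0.28 between double and single mutants was not called either (limma adjusted p = 0.273).

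Genes of the centrosome linker, pericentriolar material and microtubule anchoring gave 0 calls of 7 by limma, edgeR or DESeq2 in the 6 comparisons. Of all genes, limma called 0.0847% to 1.16%. At an unadjusted p under 0.05 there were 0 to 3 (0% to 42.9%, against 5.22% to 16.1% of all genes). The highest count, 3 of 7, was in csf1rb-heterozygous mutants against control (42.9%, against 15.6% of all genes). cep57l1, a relative of the centrosome gene cep57, had the largest difference from control in this class: means of 3.33 ± 0.677 CPM (SD, n = 2) in controls and 3.98 ± 0.744, 5.51 ± 1.28 and 5.70 ± 1.25 CPM (SD, n = 3 each) in single, csf1rb-heterozygous and double mutants. Its csf1rb-heterozygous and double mutant libraries lay above both controls, with differences of 0.58 and 0.62 that were not called (limma adjusted p = 0.265 and 0.229). cep350, a large protein that anchors microtubules at the centrosome, ranged from 59.0 to 90.2 CPM.

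**Figure D3:**
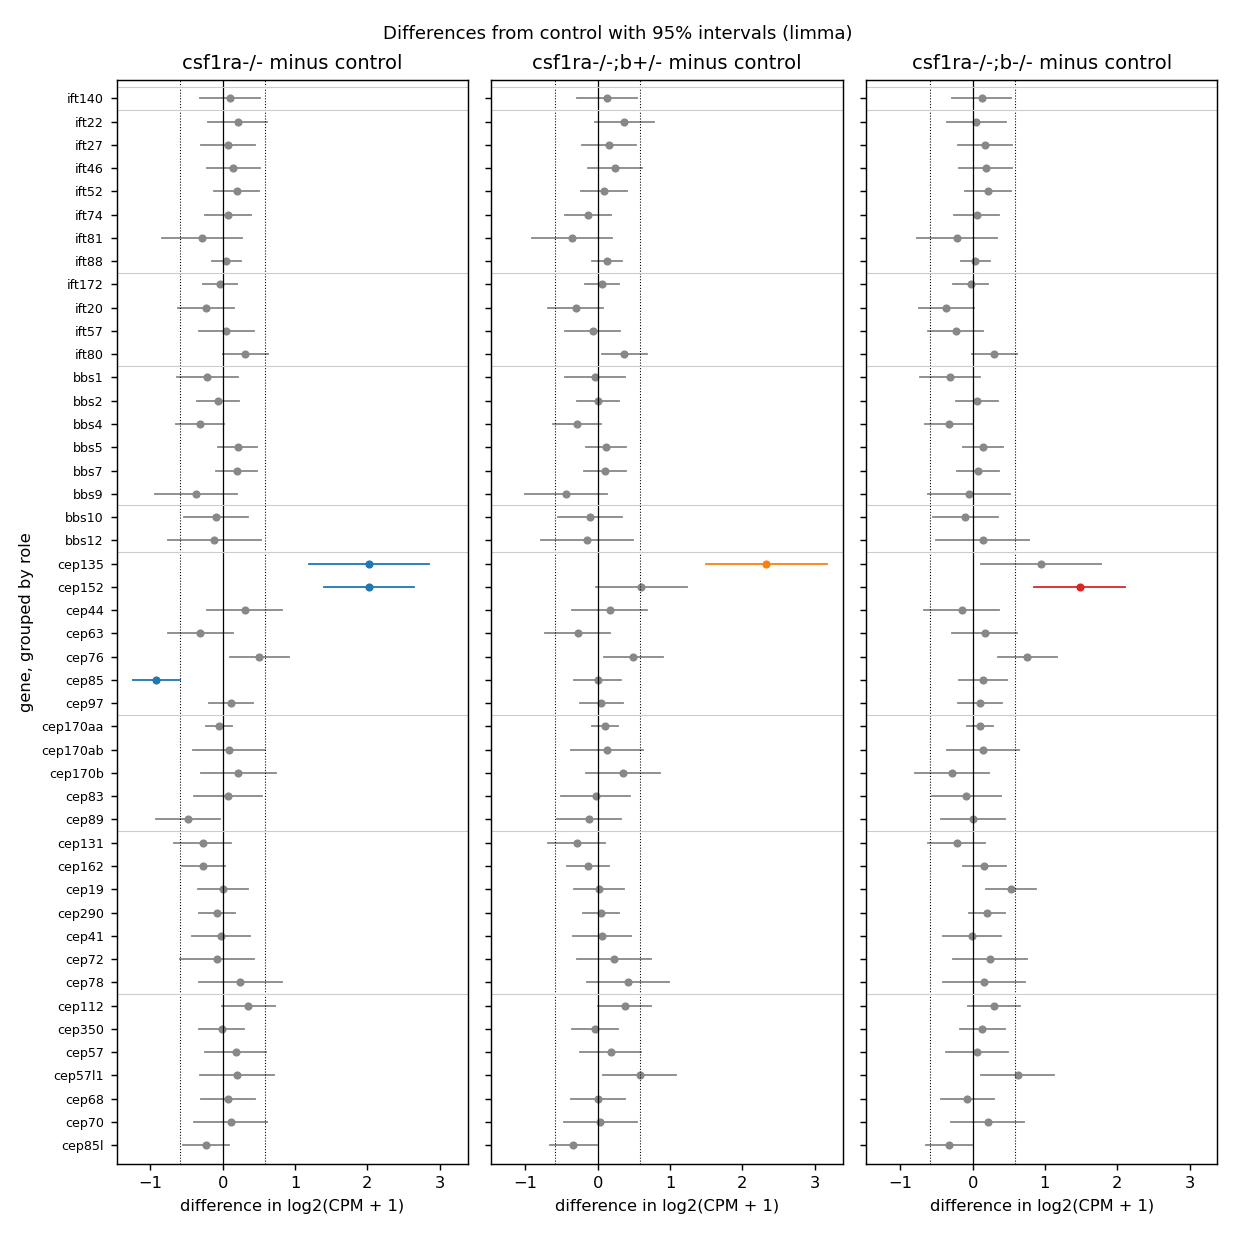
Difference from control in log2(CPM + 1) for 46 of the 47 genes in single, csf1rb-heterozygous and double mutants, with 95% intervals from limma; coloured genes have an adjusted p under 0.05 and dotted lines mark 1.5-fold either way. The coloured genes are cep135, cep152 and cep85 in single mutants, cep135 in csf1rb-heterozygous mutants and cep152 in double mutants.

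Counted over all 47 genes, the groups did not overlap for 18, 18 and 21 in single, csf1rb-heterozygous and double mutants against control (38.3%, 38.3% and 44.7%, against 29.2%, 34.4% and 36.4% of all genes). Between mutants this held for 4 in csf1rb-heterozygous against single, 12 in double against single and 8 in double against csf1rb-heterozygous mutants (8.51%, 25.5% and 17.0%, against 11.7%, 16.2% and 9.09% of all genes). The 95% interval lay within 1.5-fold either way for 22, 24 and 23 genes against control and for 36, 30 and 32 between mutants in the same orders. As shares (46.8%, 51.1%, 48.9%, 76.6%, 63.8% and 68.1%) these stood beside 50.9%, 47.7%, 48.1%, 64.9%, 60.8% and 66.1% of all genes.

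Genes of the same structures were also measured under other names. Of 152 such genes in 5 lists (IFT and BBS parts, ciliary motors and membrane cargo, transition zone, centriole and centrosome, motile cilia), limma called 2 in single, 1 in csf1rb-heterozygous and 0 in double mutants against control, with 23, 21 and 23 at an unadjusted p under 0.05. The called shares were 1.32%, 0.658% and 0%, beside 0.472%, 0.671% and 1.16% of all genes. At an unadjusted p under 0.05 the shares were 15.1%, 13.8% and 15.1%, beside 11.4%, 15.6% and 16.1% of all genes, and thus near the background. edgeR called 2, 1 and 0 of the 152, and DESeq2 3, 4 and 4. Shares of all genes called by these 2 tools are not given here, so their counts have no background beside them. Called in both single and csf1rb-heterozygous mutants was ssx2ipb (ENSDARG00000061602), a satellite and spindle pole protein that in human cells helps bring CEP290 to the cilium's base. It stood at 43.1 and 43.4 CPM in controls, 114, 144 and 122 in single, 95.8, 102 and 104 in csf1rb-heterozygous, and 46.0, 51.3 and 50.9 in double mutants. Single and csf1rb-heterozygous mutants lay far above the controls and the double mutants.

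ssx2ipb rose by 1.52 (SE 0.11, limma adjusted p = 0.000236) in single and by 1.202 (SE 0.11, limma adjusted p = 0.000914) in csf1rb-heterozygous mutants, and its difference in double mutants was 0.19 (limma adjusted p = 0.437). It was lower in double than in single mutants by -1.34 (limma adjusted p = 0.000164) and than in csf1rb-heterozygous mutants by -1.02 (limma adjusted p = 0.00158). All 4 of these calls of ssx2ipb were kept whichever library was left out. cep135 had its highest means in the same 2 mutant groups, but limma did not call its differences between them and double mutants. DESeq2 called its difference between double and csf1rb-heterozygous mutants, as given above.

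pibf1 (ENSDARG00000013006), whose human product is also known as CEP90, a satellite and appendage protein, was at 3.35 and 2.16 CPM in controls, 7.54, 9.52 and 13.03 in single, 3.69, 4.04 and 4.41 in csf1rb-heterozygous, and 5.14, 5.82 and 3.21 in double mutants. Single mutant libraries of pibf1 lay above all others, a rise of 1.54 over control (SE 0.26, limma adjusted p = 0.0280). That call was lost without control replicate 1 (0.0631), control replicate 2 (0.270), single mutant replicate 2 (0.0942) or single mutant replicate 3 (0.0960), without the libraries numbered 2 (0.0928) and in a fit of those 2 groups alone (0.0565). wdr35 (ENSDARG00000069269), an IFT-A subunit, was 0.74 higher in double than in single mutants (SE 0.14, limma adjusted p = 0.0308), at 63.7, 54.4 and 50.0 against 31.6, 34.2 and 33.2 CPM. The call of wdr35 was kept only without double mutant replicate 3 (0.0424) and was lost without any other 1 of its libraries, at 0.121, 0.0714 and 0.115 without single mutant replicates 1, 2 and 3 and at 0.133 and 0.0925 without double mutant replicates 1 and 2. It was also lost without the libraries numbered 2 (0.127).

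**Figure D4:**
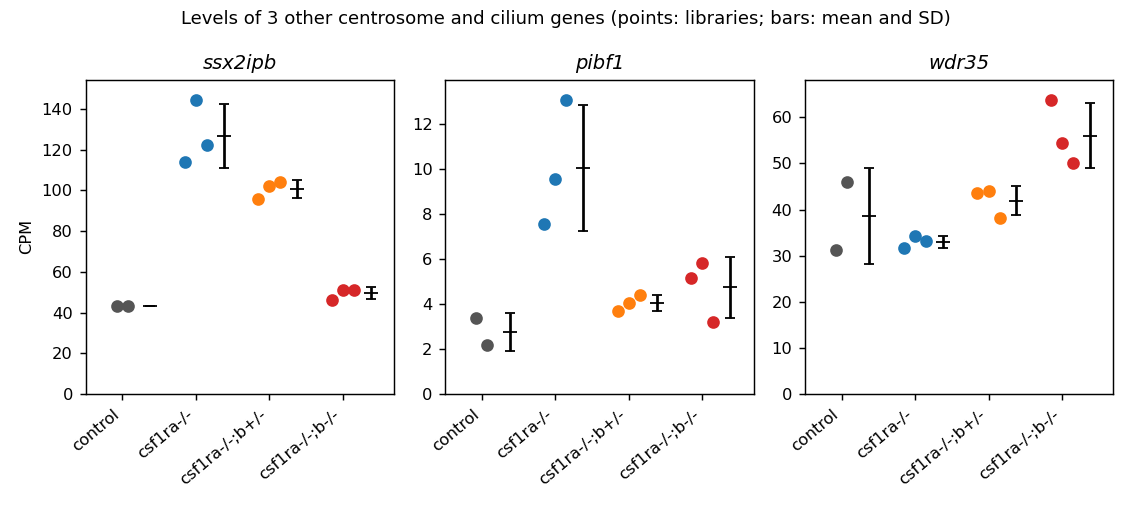
CPM of ssx2ipb, pibf1 and wdr35 in each library by genotype (points), with the mean and SD of each group beside them (bars; n = 2 for control, n = 3 for each mutant). For ssx2ipb the single and csf1rb-heterozygous mutants sit at 95.8 to 144 CPM and the controls and double mutants at 43.1 to 51.3 CPM.

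Lists of other cell types and of dividing cells were set beside these genes. Over the 6 comparisons, 0.0847% to 1.16% of all genes were called by limma and 5.22% to 16.1% had an unadjusted p under 0.05. In lists of this length a count of 0 calls thus lies near the background. A count of 1 is a larger share than the background but rests on 1 gene. Background shares of calls here are limma's. Those of edgeR and DESeq2 are not given, so counts by these tools have no background beside them. The proliferation genes (30 symbols, 31 table entries), whose cells duplicate centrioles, gave 0 calls by limma or edgeR in any of the 6 comparisons and up to 1 by DESeq2. At an unadjusted p under 0.05 they gave 0, 2 and 8 in single, csf1rb-heterozygous and double mutants against control (0%, 6.45% and 25.8%, against 11.4%, 15.6% and 16.1% of all genes). They had a median difference from control of 0.09 in single, -0.19 in csf1rb-heterozygous and -0.19 in double mutants. In double against single mutants their median was -0.33, with 4 of 31 above 0 and 7 at an unadjusted p under 0.05 (22.6%, against 11.3% of all genes). In csf1rb-heterozygous against single mutants it was -0.19, with 4 of 31 above 0 and 3 at an unadjusted p under 0.05 (9.68%, against 6.28%), and in double against csf1rb-heterozygous mutants it was -0.05, with 9 above 0 and 3 (9.68%, against 5.22%). Their summed level was 268 to 317 CPM in controls and 251 to 357 CPM in mutant libraries. The 47 motile cilia genes gave 0 calls by limma or edgeR, up to 1 by DESeq2 and 2 to 7 at an unadjusted p under 0.05, and summed to 312 to 331 CPM in controls and 310 to 368 CPM in mutant libraries. Against control, 7, 7 and 3 had an unadjusted p under 0.05 in single, csf1rb-heterozygous and double mutants (14.9%, 14.9% and 6.38%, against 11.4%, 15.6% and 16.1% of all genes). In the same order 38, 32 and 29 of 47 lay above 0, with medians of 0.16, 0.11 and 0.12. Radial glia genes (19 symbols, 20 entries) gave 0 calls by limma or edgeR, up to 2 by DESeq2 and 1 to 6 at an unadjusted p under 0.05. In single, csf1rb-heterozygous and double mutants against control these were 4, 6 and 6 (20%, 30% and 30%, against 11.4%, 15.6% and 16.1% of all genes). Their median differences there were -0.11, -0.31 and -0.14. Ependyma and choroid genes (10) gave 1 lower call by limma, in csf1rb-heterozygous mutants against control (10%, against 0.671% of all genes). Retina and pineal genes (21), from tissues rich in modified cilia, gave 0 calls by limma, edgeR or DESeq2, with at most 1 at an unadjusted p under 0.05, but varied widely within groups, from 173 and 210 CPM in controls to between 33.5 and 355 CPM in mutant libraries. Endothelial genes (20) gave 1 lower call by limma, in double mutants against control (5%, against 1.16% of all genes). Between mutants, erythrocyte genes (11 entries) gave 2 lower calls by limma in csf1rb-heterozygous and 1 in double against single mutants (18.2% and 9.09%, against 0.187% and 0.943% of all genes). In each of these, 7 of 11 had an unadjusted p under 0.05 (63.6%, against 6.28% and 11.3% of all genes).

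The authors' deposited table of their own comparisons had adjusted p-values under 0.05 for cep152 and cep85 in single mutants against control, cep135 in csf1rb-heterozygous mutants against control and cep152 in double mutants against control. The authors' deposited table also had cep85 under 0.05 in both csf1rb-heterozygous and double against single mutants, and 0 of the 47 genes in double against csf1rb-heterozygous mutants. It thus differed from limma's calls in cep135 in single mutants alone.

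Within the mutants, the libraries numbered 2 were also compared with those numbered 1 and 3, in a fit with genotype as a term that was chosen after the data were seen. cep170ab, a subdistal appendage gene, stood at 41.7, 35.4 and 46.2 CPM in single, 45.9, 29.1 and 55.1 in csf1rb-heterozygous, and 49.5, 37.95 and 40.8 in double mutants, in the order of replicates 1, 2 and 3. ift81, an IFT-B core subunit that binds tubulin, stood at 12.1, 8.57 and 9.61, at 13.2, 6.41 and 9.79, and at 12.6, 8.63 and 10.6 CPM in the same order. Both had their lowest value of each genotype in the library numbered 2. Their differences, -0.43 (SE 0.12, limma adjusted p = 0.0511) and -0.47 (SE 0.14, limma adjusted p = 0.0751), were not called.

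cep131, a satellite gene, was likewise lowest in the library numbered 2 of each genotype, with a difference of -0.32 that was not called (limma adjusted p = 0.101). cep135 lay the other way, with a difference of 0.68 (limma adjusted p = 0.0829), and was highest in the library numbered 2 in each genotype. In this comparison 1 of the 47 genes was called, lower (2.13%, against 7.92% of all genes), and 9 had an unadjusted p under 0.05 (19.1%, against 24.6% of all genes). The 4 genes described here are among the 9. Most members lay above 0, unlike cep170ab, ift81 and cep131. This held for 31 of the 47 genes, with a median difference of 0.07 against 0.02 for all genes. Of the 12 ift genes 11 lay above 0, with a median of 0.16, and ift81 was not among them. Of the 152 genes under other names, 5 fell (3.29%), and 5 of the 20 endothelial genes did (25%), whose part in these differences was not tested. The 5 of the 152 include ttbk2a, a kinase that starts cilium assembly at the mother centriole in mammals, which fell by 1.08 (limma adjusted p = 0.00454). What the number 2 stands for is not given in the sources used here.

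**Figure D5:**
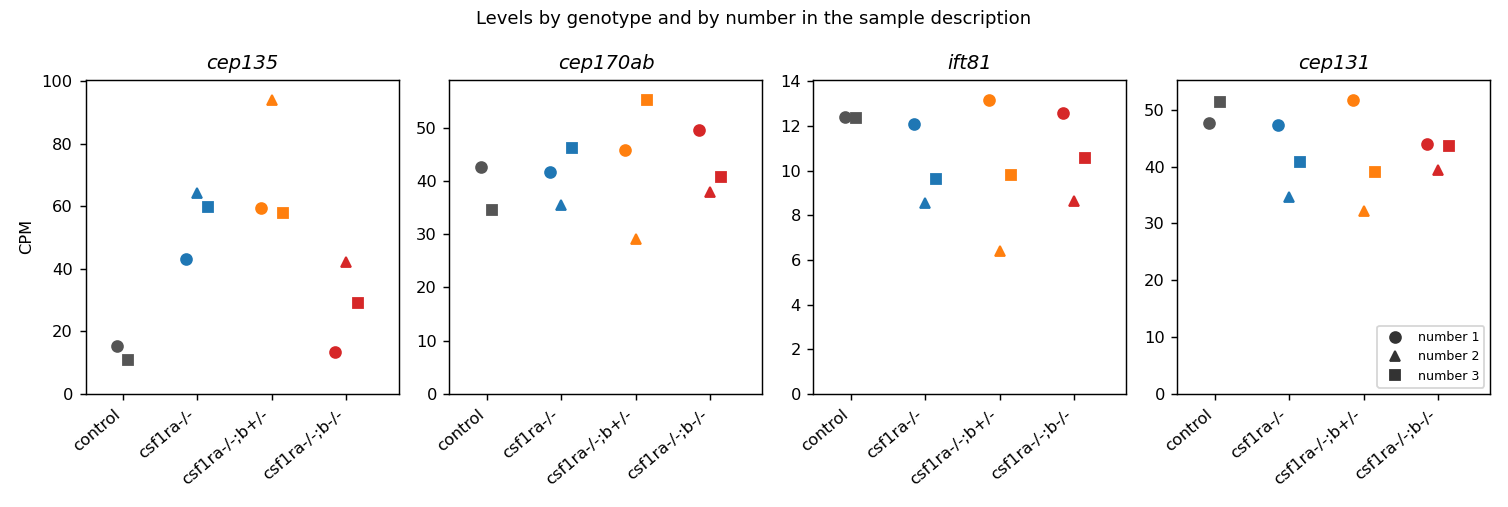
CPM of cep135, cep170ab, ift81 and cep131 in each library by genotype; the symbol gives the number in the sample description (circle 1, triangle 2, square 3). Triangles, which occur in the 3 mutant groups and not among the controls, are the lowest point of each mutant group in cep170ab, ift81 and cep131 and the highest in cep135.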

How the data were processed

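The deposited signal is CPM for 16536 genes in 11 libraries, which the authors scaled by normalization factors, per the file headers and the values. HISAT2, edgeR and the build GRCz10 were used per the submitters' processing notes; the sources used here give no version, gene counter, annotation release or handling of strand and shared reads. Per the labels' protocols, cDNA was pre-amplified, cut with Tn5 and read as single ends of 50 nucleotides. The deposited log2 values were not used further, and adjusted p-values from the authors' own 6 comparisons, also deposited, were only set beside the calls made here. The table lists genes above 1 CPM in 3 or more libraries. All values (100%) were whole reads within 0.001 once divided by the column's step, giving 12.8 to 15.3 M reads per library.

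Because the values are scaled CPM and not counts, limma 3.58.1 (its moderated test, trended variance, log2(CPM + 1), all 4 groups in 1 fit, no block, R 4.3.3) was the main test, with Benjamini-Hochberg adjustment over 16536 genes and a threshold of 0.05. edgeR 4.0.16 and DESeq2 1.42.0 on the recovered reads, pseudocounts of 0.5 and 5, a mean CPM of at least 2, no normalization factors, 2-group fits, replicate blocks and leaving out libraries were alternatives. In simulated reads for double mutants against control over 16536 genes, limma recovered 61% of genes changed 2-fold and 96% of those changed 4-fold, with 8 false calls. The changed genes were drawn only from those with a mean of at least 5 CPM. The shares therefore do not cover lower genes such as cep152, with a mean of 4.31 CPM. Replicates differed by more than counting error, so none was counted as a repeat.

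Named genes are those called in any comparison, the 4 with the smallest p in each, and the highest, lowest and most variable of each role class, plus called genes of the context lists. cep170ab, cep131, cep97, cep63, bbs4 and mtdhb were named after their values were seen. Role classes were assigned from general knowledge. Results of 1 member are not reported here by name; counts over the 47 include it, and the plots show the other 46. The members and lists were chosen with earlier results of these data known. Titles number replicates alike across groups. By title number, deviations of same-numbered libraries correlated at 0.37, 0.64 and 0.31 between single and csf1rb-heterozygous mutants. These were taken as paired in the fits with a replicate block, not in the main fit. Elsewhere the correlations ran from 0.025 to 0.31, with at least 1 value under 0.1 between any 2 groups. Between csf1rb-heterozygous and double mutants they were 0.26, 0.31 and 0.060. Control replicate 2 bears number 3 in its description, so blocks by both numberings were fitted. By description number, controls and csf1rb-heterozygous mutants correlated at 0.20 and 0.11. The design text speaks of triplicate controls, and 2 libraries were analysed.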

Additional observations from a re-analysis of the deposited data

How the results depend on the processing

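With a pseudocount of 5 CPM, limma called 0 of the 47 genes in double mutants against control (1 in the analysis reported) and 2 in csf1rb-heterozygous against single mutants (1 reported). DESeq2 called 2 in each of these and 1 in double against csf1rb-heterozygous mutants (0 reported). Fits of only the 2 groups compared called 0 in double mutants against control and 0 in csf1rb-heterozygous against single mutants. Without the 3 mutant libraries numbered 2, a setting chosen after the data were seen, 1 was called in single mutants against control (3 reported) and 0 in csf1rb-heterozygous against single mutants. Leaving out 1 library at a time gave 0 to 2 calls in single, 0 to 1 in csf1rb-heterozygous and 0 to 1 in double mutants against control. It gave 0 to 1 in csf1rb-heterozygous against single, 1 in each fit of double against single, 0 in double against csf1rb-heterozygous mutants, and 1 to 3 in the comparison of libraries numbered 2. Where a left-out library leaves 1 control, that library is assumed to vary like the other groups. With a replicate block by either numbering, the counts stayed at 3, 1, 1, 1, 1 and 0, and no call of a member in the paired comparison changed. No direction of a called difference reversed under these settings. The share of all genes called under each setting is not given here, so the counts above have no background beside them. Apart from cases built from fewer libraries, the cause of the changes was not tested. Depth limits cep152 (13 to 25 reads in 4 libraries), among others, and 2 control libraries limit every comparison with control.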
